A study of Mus musculus with 8 samples.

Results

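The comparison described here set mouse squamous carcinoma cells transfected with the microRNA miR-193b-3p against cells transfected with a negative control microRNA (NC), by messenger RNA level. The cells were mSCC-20, a line from a cutaneous squamous cell carcinoma of the FVB/N strain. Total RNA was labelled with Cy3 and hybridised to 1-colour Agilent mouse expression arrays. The group given miR-193b had 2 arrays and its NC group had 2 arrays, all 4 labelled with an amount of 0.2 µg, and these are called the 0.2 set. The other 4 of the 8 arrays, 2 NC and 2 given miR-365a-3p, carry the amount label 0.6 µg and are used here for the estimate of spread and for 1 side comparison. The labels do not say what the amount refers to. They give neither the hours after transfection nor whether the replicates were separate cultures, and the p values therefore cover no more than the variation among these arrays.

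The genes described are those with a probe well above background on each of the 4 arrays just named. They number 14671 of 17850 genes tested in the series and of 30139 gene names on the array. Genes that were dim on either side were left out by this rule. A gene lost or gained altogether is therefore not among those described. Of the 3179 tested genes left out, 66 were called higher and 49 lower. The log2 signal of each probe is given relative to the 75th percentile of its array, so 0 is the level of a probe at that percentile. A difference is miR-193b minus NC on this log2 scale, with the standard error (SE) of a limma fit over all 8 arrays. A gene is said to have risen or fallen (a call) where the p adjusted by Benjamini and Hochberg over all genes tested was under 0.05. Array replicates are numbered in the order of deposit. NC replicate 1 and miR-193b replicate 1 shared slide 1, NC replicate 2 was on slide 2 and miR-193b replicate 2 on slide 3. The 4 arrays of the 0.6 set were all on slide 4. Their median background was 26 to 30, beside 55 to 60.5 in the 0.2 set. The spread they add is therefore that within a slide, while the comparison here also crosses slides.

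A microRNA guides an Argonaute protein to messenger RNAs. Pairing of the seed, its bases 2 to 8 from the 5′ end, with a complementary stretch, most often in the 3′ untranslated region, leads to deadenylation and decay of the message or to less translation. A strongly supplied microRNA therefore tends to lower many messages a little, and further genes change in the wake of those. miR-193b is encoded next to miR-365 in a cluster with a paralogous cluster elsewhere in the genome, and it has been described as a growth-restraining microRNA in several carcinomas.

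The mature sequences are shown because the seed is what the sequence search below rests on. They are those of RefSeq, with positions on GRCm38.p6, and the seed is in capitals.
mmu-miR-193b-3p: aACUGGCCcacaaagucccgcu
mmu-miR-193a-3p: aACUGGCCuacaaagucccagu
mmu-miR-365-3p: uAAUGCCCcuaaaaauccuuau
miR-193b-3p lies on chr16:13449570-13449591 and miR-365-3p on chr16:13453895-13453916 and in a second copy on chr11:79726467-79726488, all on the plus strand. miR-193a-3p, on chr11:79712009-79712030, has the same seed as miR-193b-3p. The seed of miR-365-3p is a different one. The level of the transfected microRNAs themselves was not analysed here.

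Genes whose probe letters hold the complement of the miR-193b seed leaned lower after miR-193b. Each probe is a 60-base stretch of the messenger strand, usually near the end of the transcript, so it shows only part of a message. The letters searched on that strand were GGCCAGT (7 letters, pairing with bases 2 to 8), GGCCAGTA (8 letters), GCCAGTA (7 letters, ending in an A) and GCCAGT (6 letters). Of 39429 probes, 1.34% held GCCAGT, 0.294% GGCCAGT, 0.238% GCCAGTA and 0.0609% GGCCAGTA, where the longer matches contain GCCAGT too. Among the genes described, 97 had a probe with at least 7 of these letters. Of the 97, 63 lay below 0 (64.9%, beside 44.4% of all 14671 genes and 45.6% of those tested), 10 fell (10.3%, beside 1.1% of all) and 1 rose, the DNA polymerase gene Poln, whose match lies in a second, dim probe. The median difference of the 97 was -0.09, beside 0.05 over all genes. Slide 1 alone gave -0.09, and slides 2 and 3 together -0.13.

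The classes of match did not line up by length. The 34 genes with GCCAGTA had a median of -0.31 with 28 below 0 and 6 called lower. The 52 with GGCCAGT had a median of -0.03 with 4 called lower, and the 11 with GGCCAGTA a median of -0.02 with 0 called. Of those 11 limma called 0, and 7 lay below 0. The 204 genes with only GCCAGT had a median of -0.03, with 5 called lower and 4 higher. Of the 14370 genes with none of these letters in any probe, 147 fell (1.02%) and 216 rose, at a median of 0.05. No match in a probe says only that these letters are not in that window.

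As a side value, the same search was made for the miR-365 seed, whose 7-letter matches are GGGCATT and GGCATTA. The 99 genes with such a match had a median of 0.07 after miR-193b. Of them 0 were called lower and 6 called higher, beside 1.1% and 1.51% of all genes. After miR-365a, in the 0.6 set, the median of the 99 was -0.44, with 80 below 0 (80.8%) and 34 called lower. Of genes without any miR-365 match 48.2% lay below 0 there. Calls were more frequent in that set, with 9.40% of all genes called lower, so the counts of the 2 microRNAs do not compare directly. The 97 genes with a miR-193b match had a median of 0.03 after miR-365a. Letters complementary to the miR-193b match, that is the match on the other strand, were present in probes of 142 genes with a median of 0.11 and 2 called lower (1.41%).

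**Figure D1:**
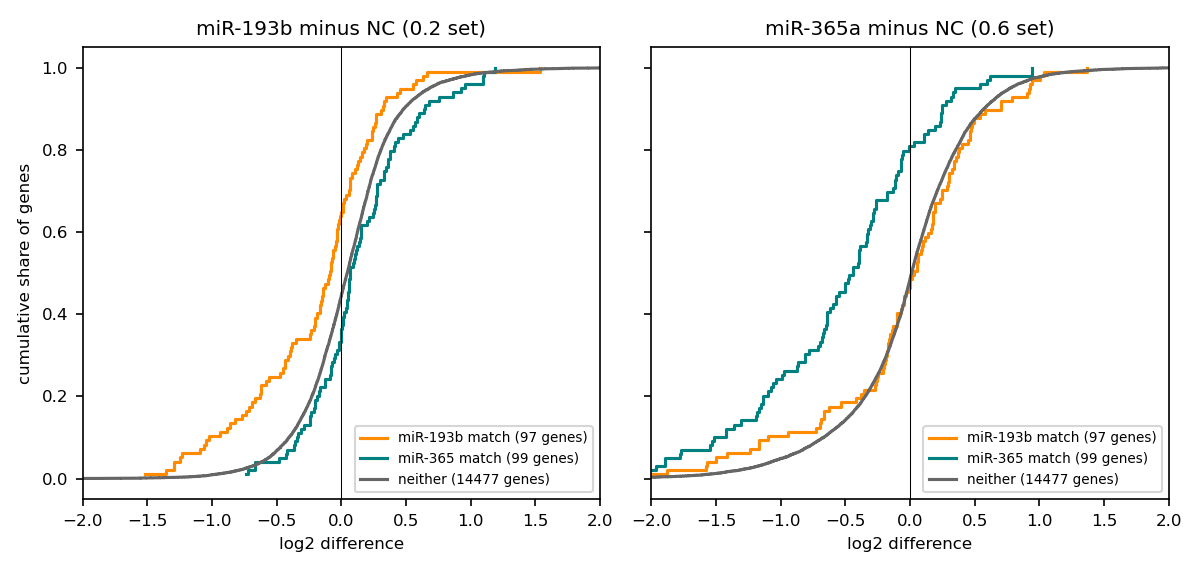
Cumulative share of genes (y axis) against the log2 difference (x axis) after miR-193b in the 0.2 set (left) and after miR-365a in the 0.6 set (right), for genes with at least 7 letters of a miR-193b match (97), of a miR-365 match (99) or of neither in a probe. The miR-193b line lies left of the others on the left panel (median -0.09), and the miR-365 line on the right panel (median -0.44).

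The windows below are 30 bases of the probes of the 10 genes that fell and hold at least 7 letters, with the match in capitals. They show what the matches look like in the messages that moved, and are read from the deposited probe sequences, 5′ to 3′ on the messenger strand.
Stmn1: caaagactgtactGGCCAGTgtcctttact
Zfp365: gctgcagGGCCAGTcaaatgtatagatgtt
Slc44a2: gtaattgcattccGGCCAGTtaataaagtg
Unc13c: GGCCAGTctctttaagagcttgattttagc
Gprc5b: gacctcgtcttaaGCCAGTAcatctgagct
Zdhhc18: cctttcgttcgaGCCAGTAtctttgttccc
Ap5m1: ctgtgtttaggatGCCAGTAgacttaagac
Serinc2: agacttcactcaataaacatGCCAGTAcct
Prkci: ctgtgtccctgttGCCAGTActtatttaga
Dnaaf2: aaggaaaatataagagaGCCAGTAataagc
Below them stand the 2 genes with GGCCAGTA whose values were lowest, neither of which was called, and Asah1, the gene with the largest fall among those holding only GCCAGT.
Etv1: tcacaGGCCAGTAgcattttatgtatctgg
Kbtbd6: atgtttccagtctGGCCAGTAgtagggtgg
Asah1: ccacatagaaattGCCAGTtcatttcactt
The probes lie on mm9, for example that of Stmn1 at chr4:134029355-134029414. Whether a probe lies in coding sequence or in an untranslated region was not determined, since no mm9 annotation was used here.

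Stmn1 encodes stathmin, which binds tubulin dimers and destabilises microtubules, and is among the genes reported as miR-193b targets in other cells. Its log2 signal was 4.80 and 4.84 on the NC arrays and 3.34 and 3.27 on the miR-193b arrays. Both miR-193b arrays lay below both NC arrays by far more than replicates differed. The fall was 2.86-fold (log2 difference -1.52 ± 0.11, SE, n = 2 and 2, limma adjusted p = 0.0114), and a second probe gave -1.49. After miR-365a the difference was -0.07, and the effects of the microRNAs differed (adjusted p = 0.0146).

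The other 9 genes that fell with at least 7 letters had smaller differences than Stmn1. Zdhhc18, a palmitoyltransferase gene, read 3.78 and 4.04 on NC arrays and 2.63 and 2.61 on miR-193b arrays (-1.29 ± 0.15, adjusted p = 0.0236). Gprc5b, an orphan receptor gene, fell by 1.29 on the log2 scale with its brightest probe, while the probe that holds the match gave -0.71. Ap5m1, a subunit of an endosomal adaptor complex, had a difference of -1.24 ± 0.14 and the zinc finger gene Zfp365 one of -1.23 ± 0.14 (limma adjusted p = 0.0214 for both). Serinc2 (-1.06), the choline transporter-like gene Slc44a2 (-0.88), Unc13c of synaptic vesicle priming (-0.82), the atypical protein kinase C gene Prkci (-0.69) and the dynein assembly factor gene Dnaaf2 (-0.62) made up the rest. Slc44a2 rose after miR-365a (0.93, limma adjusted p = 0.00668), and the effects of the microRNAs on it differed (limma adjusted p = 0.0121). Gprc5b (-1.24), Unc13c (-1.17) and Prkci (-0.62) fell after miR-365a too (limma adjusted p = 0.0143, 0.00668 and 0.0167). For none of these was the difference between the microRNAs called. Zdhhc18, Ap5m1, Zfp365, Serinc2 and Dnaaf2 were not called after miR-365a. Etv1, an ETS factor gene with the 8-letter match, had a difference of -1.05 ± 0.30 (adjusted p = 0.123), and Kbtbd6, a ubiquitin ligase adaptor gene, one of -0.67 ± 0.21 (adjusted p = 0.145).

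Over the 14671 genes, 383 were called (2.61%, beside 2.79% of the 17850 tested). Of them 221 rose (1.51%, beside 1.61% of those tested) and 162 fell (1.1%). By at least 2-fold 110 rose and 62 fell, and the smallest called difference was 0.57 on the log2 scale. At least 2-fold differences of either sign, called or not, were found in 2.75% of genes, beside 5.4% of those tested. Another 231 genes differed at least 2-fold without a call. The quartiles of all differences were -0.17 and 0.25. At an unadjusted p under 0.05 there were 3073 genes (20.9%). In 54.3% of genes both miR-193b arrays lay on one side of both NC arrays, above them in 30.6% and below them in 23.7% (28.6% above among the genes tested). All 383 called genes were of this kind, which the call on the same arrays favours.

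The number of calls rests on few arrays and on the 0.6 set, as seen by fitting the 0.2 set alone or leaving out a single array at a time. With the 4 arrays of the 0.2 set fitted alone limma called 0 genes (2469 at an unadjusted p under 0.05), without either miR-365a array it called 2, and without either NC array of the 0.6 set 101. Without NC replicate 1 or 2 of the 0.2 set there were 64 and 126 calls, and without miR-193b replicate 1 or 2 there were 37 and 51.

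Called genes that rose had dimmer probes than those that fell. Of the 221 that rose, 105 (47.5%) lay in the dimmest of 3 equal classes of the 14671 genes by mean signal and 25 (11.3%) in the brightest, and of the 162 that fell 42 (25.9%) lay in the dimmest and 48 (29.6%) in the brightest class. Long noncoding RNA genes made up 15 of the 221 (6.79%) and 1 of the 162 (0.617%), Mir100hg, beside 334 of all 14671 (2.28%). Whether the dimness of a probe plays a part in these calls was not tested.

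**Figure D2:**
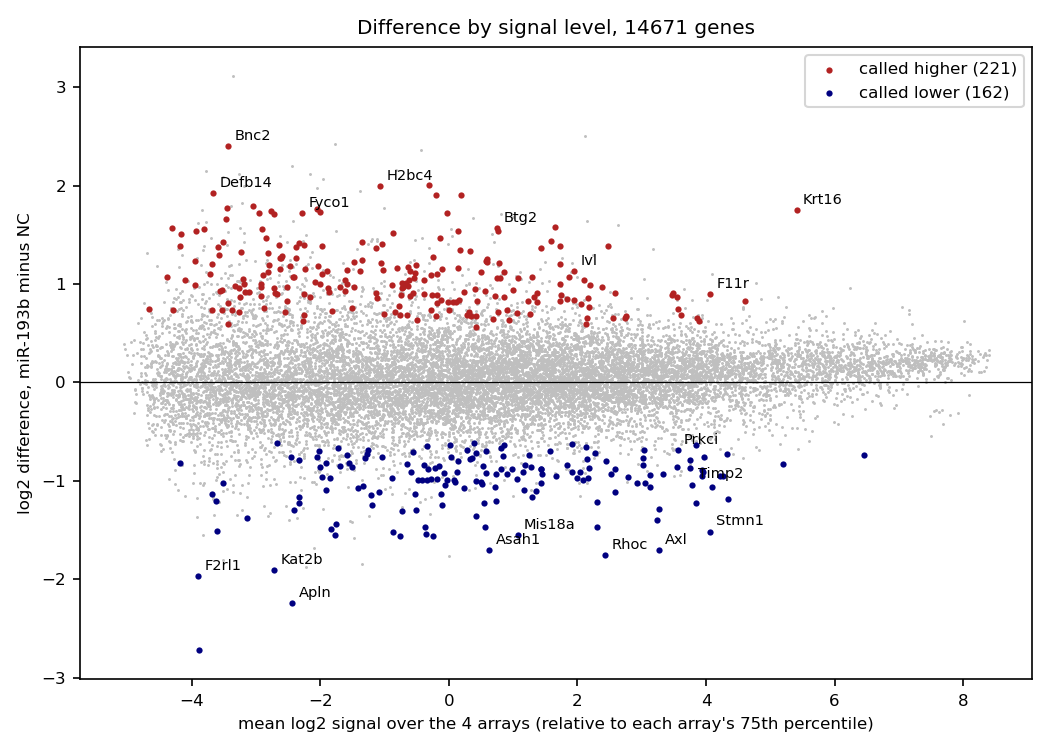
Log2 difference, miR-193b minus NC (y axis), against the mean log2 signal over the 4 arrays relative to the 75th percentile of each array (x axis), 1 point per gene, with the 221 genes called higher in red and the 162 called lower in blue. Red points lie mostly to the left and centre (25 of 221 in the brightest class), and blue points are spread further to the right.

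Among the largest falls with a gene symbol were a secreted peptide and 2 receptors. Apln, encoding the vasoactive peptide apelin, read -1.53 and -1.09 on the NC arrays and -3.73 and -3.37 on the miR-193b arrays, with its probe on mm9 at chrX:45378593-45378652. It fell 4.73-fold (-2.24 ± 0.28, SE, n = 2 and 2, limma adjusted p = 0.0259), and its difference after miR-365a was 0.32. F2rl1, a receptor activated by proteases such as trypsin, read -2.85 and -2.97 against -4.57 and -5.19, a fall of 3.92-fold (SE 0.28, limma adjusted p = 0.0322). Axl, a receptor tyrosine kinase for the ligand GAS6 that is linked to invasion and drug resistance, had close replicates. It read 4.07 and 4.15 on the NC arrays and 2.40 and 2.43 on the miR-193b arrays, a difference of -1.70 ± 0.10 (3.25-fold, limma adjusted p = 0.0114) with its probe at chr7:26542541-26542600. The difference after miR-365a was -0.29, and the effects of the microRNAs on Axl differed (limma adjusted p = 0.0145). A transcript known only by the Ensembl identifier ENSMUST00000080175 had the largest fall of all 14671 genes, by 2.72 on the log2 scale.

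Of similar size were the falls of Kat2b, Rhoc and Asah1, each larger than that of Axl. Rhoc, a small GTPase of actin remodelling and cell motility, read 3.28 and 3.34 on the NC arrays and 1.57 and 1.53 on the miR-193b arrays (3.38-fold lower, adjusted p = 0.0246), and a second probe gave -1.65. Kat2b, the PCAF histone acetyltransferase, read -1.71 and -1.82 against -3.92 and -3.43 (3.76-fold lower, adjusted p = 0.0208). The acid ceramidase gene Asah1, which turns ceramide into sphingosine, read 1.70 and 1.26 against -0.12 and -0.33 (3.27-fold lower, adjusted p = 0.0230), with a second probe at -1.11. Lpcat1, a lysophosphatidylcholine acyltransferase gene, fell by 1.55. Unlike Rhoc (-0.04), Kat2b (0.25) and Asah1 (-0.07), Lpcat1 fell after miR-365a as well (-1.31, adjusted p = 0.00812).

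The other large falls were spread over genes of different roles. Med6, a Mediator subunit gene, read 1.38 and 1.22 on the NC arrays and -0.17 and -0.19 on the miR-193b arrays (-1.47 ± 0.12, adjusted p = 0.0139). Mis18a, needed to load the centromeric histone, read 1.82 and 1.86 against 0.29 and 0.29 (-1.55 ± 0.21, adjusted p = 0.0298). Ankrd13a, a ubiquitin-binding endocytic gene, fell by 1.47, and it rose after miR-365a (0.52, adjusted p = 0.0388). The transcription factor genes Plagl2 (-1.56) and Zbtb45 (-1.54), the leukaemia fusion partner gene Mllt6 (-1.22), the telomere repeat binding gene Terf1 (-1.36) and the nuclear pore gene Nup160 (-1.25) also fell. So did Hdgfl3 (-1.56), the immunophilin gene Fkbp1b (-1.49), the RNA binding gene Rbm38 (-1.44), the thyroid hormone and aromatic amino acid transporter gene Slc16a10 (-1.38) and the ciliary gene Evc (-1.31). Plagl2 (-0.78), Hdgfl3 (-0.69) and Mllt6 (-0.43) fell after miR-365a as well.

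**Figure D3:**
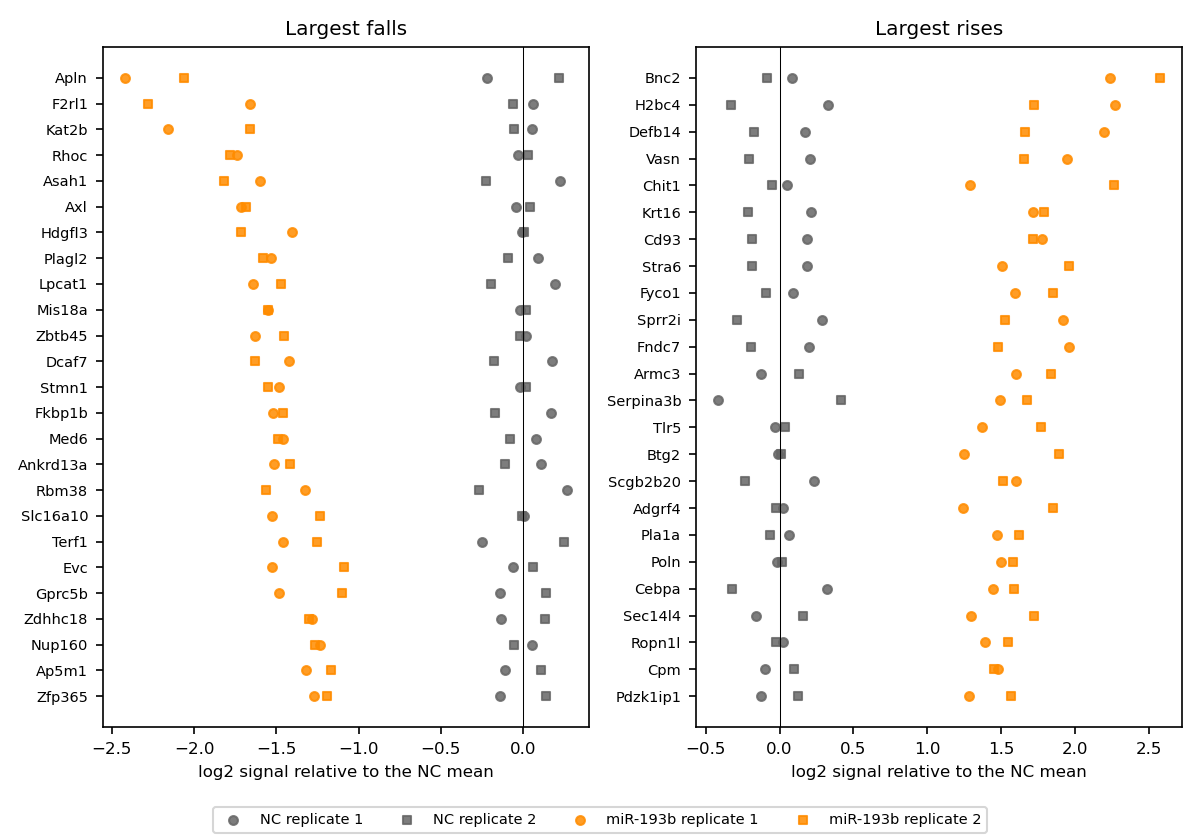
Log2 signal of each of the 4 arrays relative to the NC mean of the gene (x axis) for the 25 largest falls (left) and 24 large rises (right) among called genes with symbols. Grey symbols are NC arrays and orange symbols miR-193b arrays, circles replicate 1 and squares replicate 2. The groups lie apart for every gene shown, which the choice of genes required. The replicates of Chit1 (1.24 and 2.31 by slide comparison) are among those furthest apart.

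The largest rise was that of Bnc2, the zinc finger gene basonuclin 2. It read -4.55 and -4.72 on the NC arrays and -2.40 and -2.06 on the miR-193b arrays, with its probe on mm9 at chr4:83921520-83921579. It rose 5.29-fold (2.40 ± 0.16, SE, n = 2 and 2, limma adjusted p = 0.0114), while its difference after miR-365a was -0.03 (adjusted p of the difference between the microRNAs 0.0130). Its probe was dim, and under other ways of processing the rise ranged from 1.29 to 2.57. Krt16, a keratin induced in wounded and hyperplastic epidermis, read 4.74 and 4.32 on the NC arrays and 6.25 and 6.32 on the miR-193b arrays (1.75 ± 0.20, limma adjusted p = 0.0214). Its difference after miR-365a was -0.36, and the effects differed (adjusted p = 0.0196).

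The other large rises were in genes of different roles. Defb14, a beta-defensin gene, read -4.46 and -4.80 on the NC arrays and -2.44 and -2.97 on the miR-193b arrays (1.93 ± 0.34, adjusted p = 0.0444). It fell after miR-365a (-1.77, adjusted p = 0.0208), and the effects differed (adjusted p = 0.0187). Chit1, a chitinase gene, rose by 1.77 (SE 0.31), the flagellin receptor gene Tlr5 by 1.57 (SE 0.16), the cornified envelope gene Sprr2i by 1.72 (SE 0.31) and the serpin gene Serpina3b by 1.58 (SE 0.27). Vasn, a TGF-beta binding membrane protein gene, rose by 1.80 and the retinol transporter gene Stra6 by 1.73. The histone gene H2bc4 rose by 1.99 (SE 0.33). Fyco1, an adaptor of vesicle transport, rose by 1.72 and also after miR-365a (1.56, limma adjusted p = 0.00439). Sprr2i (1.51), Vasn (0.92) and Tlr5 (0.82) rose after miR-365a too, while Chit1, Serpina3b, Stra6 and H2bc4 were not called there.

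Among regulators, Cebpa, a transcription factor of keratinocyte differentiation and growth arrest, read -1.31 and -1.94 on the NC arrays and -0.18 and -0.04 on the miR-193b arrays (1.52 ± 0.22, limma adjusted p = 0.0322). Zfp750, a zinc finger factor of terminal epidermal differentiation, read -1.68 and -1.96 against -0.47 and -0.43 (1.37 ± 0.14, limma adjusted p = 0.0208). The remaining rises named by the rule, between 1.42 and 1.74, included those of Cd93, Fndc7, Armc3, Scgb2b20 and the adhesion receptor gene Adgrf4. The others were the phospholipase gene Pla1a, Poln, Sec14l4, Ropn1l, the carboxypeptidase gene Cpm and Pdzk1ip1. Of the genes in this paragraph so far, Fndc7 (1.71), Ropn1l (1.33), Sec14l4 (0.86), Cpm (0.77) and Zfp750 (0.67) also rose after miR-365a. The gene Etfrf1, of mitochondrial electron transfer, was among the 10 smallest p values with a rise of 1.16, and it rose as much after miR-365a (1.16). Also among these 10 were a rise of ENSMUST00000135347 (1.37) and a fall of a transcript known only as A_55_P2187034 (-1.47).

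Of 21 genes reported elsewhere as miR-193b targets and described here, 4 fell (19%, beside 1.1% of all genes called lower) and 0 rose, and the median difference was -0.41, beside 0.05 over all genes. The list was put together with earlier results of these arrays known, so its direction is a description and not a separate line of support. Besides Stmn1 the falls were those of Dcaf7, a ubiquitin ligase adaptor gene that read 0.06 and -0.29 against -1.53 and -1.74 (-1.53 ± 0.16, adjusted p = 0.0208), the 14-3-3 zeta gene Ywhaz, which read 0.69 and 0.53 against -0.28 and -0.53, and one further gene. The probes of Ywhaz ranged from -1.26 to -0.72. Ets1 (-1.56 ± 0.36, adjusted p = 0.0785) and the urokinase gene Plau (-1.24 ± 0.35, adjusted p = 0.121) had larger differences than Ywhaz (-1.02 ± 0.15) with wider errors, and were not called. Max, the partner of MYC (-0.63), Ccnd1, encoding cyclin D1 (-0.58), the adaptor gene Crkl (-0.56), Cdk6 (-0.54), Ddah1 (-0.41) and Il17rd (-0.35) lay below 0 without a call. For Stard7 the brightest probe gave -0.12 and a second probe -1.08. Near 0 were Shmt2 (-0.16), Smad3 (-0.09), Nf1 (0.03) and Mcl1 (0.10), and above it Rab22a (0.18), Arpc5 (0.29) and App (0.52), none of them called.

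The cell cycle lists lay lower as a whole. All 38 measured mitosis and cytokinesis genes were below 0, with a median of -0.53, and 5 fell (13.2%, beside 1.1% of all genes, 44.4% of which lay below 0). After miR-365a the median of this list was -0.96. They were Mis18a, Ccna2 (cyclin A2), Kif23 (a kinesin of the midbody), Prc1 (a microtubule bundler of the midzone) and Bub1b (a spindle checkpoint kinase). Prc1 read 3.40 and 3.43 on the NC arrays and 2.66 and 2.62 on the miR-193b arrays. The arrays did not overlap for 37 of the 38 genes, beside 23.7% of all genes with miR-193b arrays below NC arrays. Of the kinase and cyclin genes that drive mitosis, Cdk1 had a difference of -0.68, Aurka of -0.58, Plk1 of -0.56 and Ccnb1 of -0.39, none of them called. All 38 genes of G1-S and DNA replication were below 0 too, with a median of -0.50 (-0.62 after miR-365a), and 3 fell, Dtl, Cdc45 and Cdc25a (7.89%, beside 1.1% of all genes). Dtl, which directs the destruction of licensing factors, read 1.81 and 1.94 against 0.84 and 0.58 (-1.17 ± 0.14, limma adjusted p = 0.0236). The helicase genes Mcm2 (-1.02), Mcm10 (-0.92) and Mcm5 (-0.84) were not called, and Pcna was at -0.33. Slide 1 alone gave a mitosis median of -0.57, and slides 2 and 3 together gave -0.50.

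Replication-type histone genes did not move as 1 group. Of 13, 10 lay below 0 with a median of -0.47, and H2bc4 rose as the one call. Slide 1 alone put the median at -0.13, and slides 2 and 3 together at -0.86. H2ac4 read 4.40 and 5.18 on the NC arrays and 4.11 and 4.02 on the miR-193b arrays, with NC replicate 2 above the other 3 arrays. H1f5 (-0.94 ± 0.43) and H1f4 (-0.74 ± 0.31) also read highest on NC replicate 2, and neither was called.

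Of 20 CDK inhibitor and quiescence genes, 4 rose (20%, beside 1.51% of all genes) and 0 fell. The other 16 were not called, 6 of the 20 lay below 0, and the median was 0.24 (0.41 after miR-365a). Btg2, which restrains G1 progression and recruits deadenylases, read -0.05 and -0.02 on the NC arrays and 1.21 and 1.86 on the miR-193b arrays (2.96-fold higher, adjusted p = 0.0323). Its relative Tob1 (0.73) and the MAX-binding repressor genes Mxd4 (1.21) and Mxd1 (0.92) were the others. Tob1 (0.57), Mxd4 (1.37) and Mxd1 (0.83) also rose after miR-365a, while Btg2 (0.55) was not called there. The CDK inhibitor genes themselves were not called, with Cdkn2a at 0.49, Cdkn2b at 0.48, Cdkn1a at 0.34, Cdkn1b at -0.05 and Cdkn2d at -0.51. Of 23 p53 targets 18 lay above 0 with a median of 0.27 (0.47 after miR-365a), and Btg2 was the 1 call (4.35%). Bbc3, a proapoptotic gene, was at 1.15 ± 0.22 (adjusted p = 0.0516) and Sesn2 at 0.89 ± 0.23 (adjusted p = 0.0976), while Mdm2 was at 0.05.

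Of 20 genes of epidermal differentiation and the cornified envelope, 3 rose (15%, beside 1.51% of all genes) and 0 fell. Their median was 0.45, and 4 of the 20 lay below 0, beside 44.4% of all genes. The genes that rose were Zfp750, the grainyhead factor gene Grhl1, which read 0.01 and 0.04 against 0.86 and 0.84, and Ivl, encoding the envelope protein involucrin, which read 1.67 and 1.10 against 2.51 and 2.53. Ivl (1.32) and Zfp750 (0.67) also rose after miR-365a, while Grhl1 did not (-0.23), and the effects on Grhl1 differed (limma adjusted p = 0.0237). The envelope precursor gene Sprr1a (1.30 ± 0.28) was not called, nor were Sprr2h (0.95), Sprr1b (0.56), the loricrin gene Lor (-0.49) and the periplakin gene Ppl (-0.49). Slide 1 alone gave this list 0.28, and the other slides gave it 0.56. Of 12 keratins 10 lay above 0, and Krt16 alone was called. Its partners Krt6a (0.85) and Krt6b (1.05) and the basal keratins Krt5 (0.33) and Krt14 (0.41) were not. Of 25 junction and desmosome genes 1 rose, F11r, the junctional adhesion molecule A gene, which read 3.65 and 3.59 against 4.61 and 4.42. Pkp1 (0.76), Esrp2 (0.76), Perp (0.55) and Dsp (0.54) were higher without a call, and Cldn4 was at -0.69. Of 15 mesenchymal transition genes the one call was a rise, that of Tgfbi (1.20), an extracellular matrix gene induced by TGF-beta, at a list median of -0.22.

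**Figure D4:**
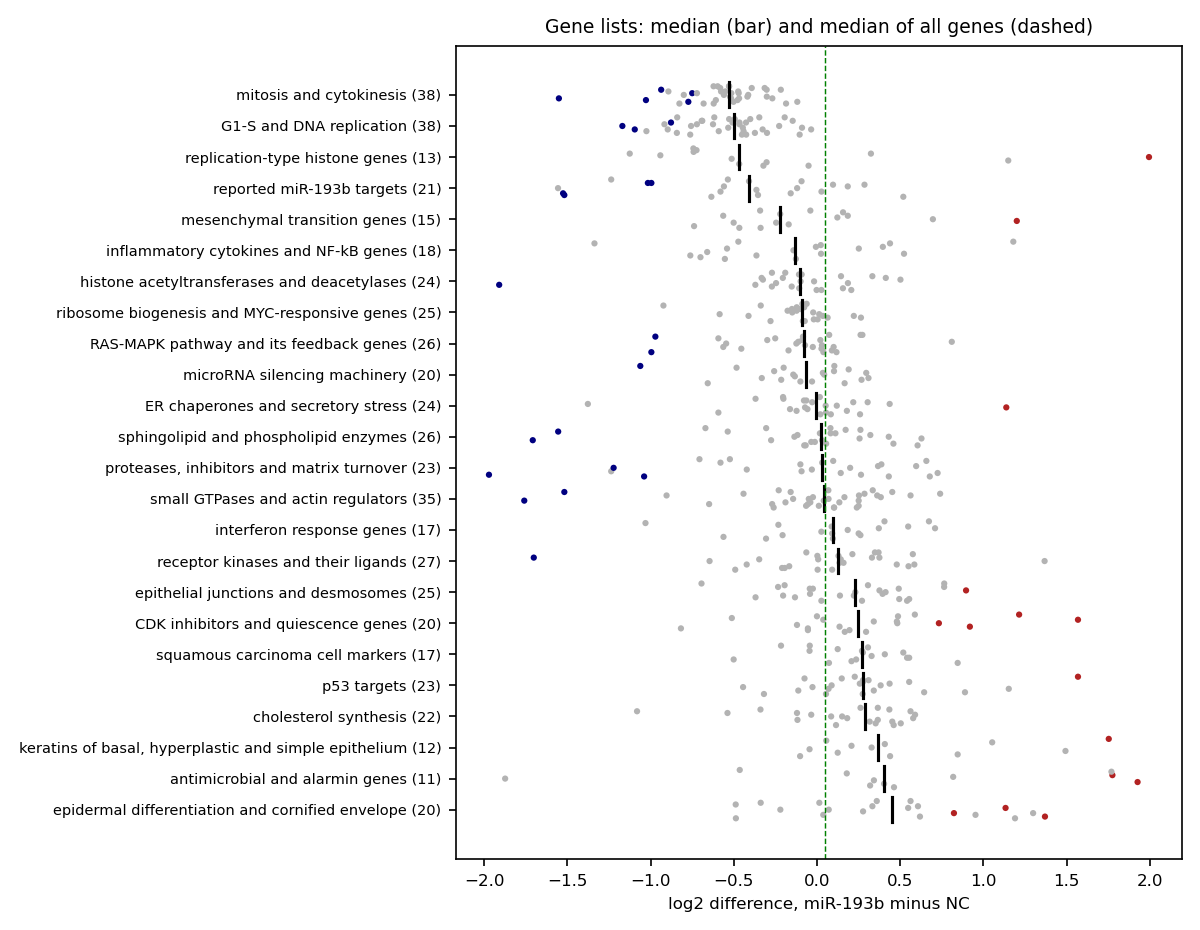
Log2 difference (x axis) of each gene described, in 24 gene lists (y axis, with the number of genes), with called genes in red (higher) or blue (lower), the list median as a bar and the median of all 14671 genes (0.05) as a dashed line. The mitosis and G1-S lists lie wholly below 0 with medians of -0.53 and -0.50, and the epidermal differentiation list has the highest median, 0.45.

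In the signalling lists single genes moved while the medians stayed near that of all genes. Of 35 small GTPase and actin regulator genes only Rhoc and Stmn1 were called, at a list median of 0.04, with Rhoa at 0.01, Rac1 at -0.05 and Rhob at 0.74. Of 27 receptor kinase and ligand genes Axl was the 1 call. The AXL ligand gene Gas6 was at 0.55, Met at 0.00 and Egfr at 0.58, none of them called. In the RAS-MAPK list 2 of 26 fell, the ETS factor gene Etv5 among them (2.52 and 2.78 against 1.64 and 1.72). Hras was at -0.59 ± 0.11 (limma adjusted p = 0.0519), and the kinase gene Map2k1 was at 0.02.

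Of 23 protease, inhibitor and matrix genes 3 fell and 0 rose. Besides F2rl1 these were Spint1, an inhibitor of the matriptase and hepsin proteases, and the metalloproteinase inhibitor gene Timp2. Spint1 read -1.58 and -1.85 against -2.89 and -2.98, and it rose after miR-365a (0.66, adjusted p = 0.0489). Timp2 read 4.29 and 4.32 against 3.35 and 3.18 (-1.04 ± 0.14), but a second probe gave 0.31. The effects of the microRNAs differed for Spint1 (adjusted p = 0.0185) and for Timp2 (adjusted p = 0.0174), which rose after miR-365a (0.60). Of 26 sphingolipid and phospholipid enzymes Asah1 and Lpcat1 fell, and Ugcg, which makes glucosylceramide, was at -0.67 ± 0.15 (adjusted p = 0.0715). Of 24 histone acetyltransferase and deacetylase genes Kat2b alone was called, and its paralogue Kat2a was at -0.21. Of 20 genes of the microRNA silencing machinery 1 fell, the deadenylase gene Cnot6 (4.45 and 4.80 against 3.57 and 3.56), with Ago2 at -0.26, Dicer1 at 0.19 and Drosha at -0.13. Cnot6 fell after miR-365a as well (-1.07). Of 24 chaperone and secretory genes Sel1l, of endoplasmic reticulum associated degradation, rose (1.14), while Hyou1 (-1.38 ± 0.34) was not called. Of 11 antimicrobial and alarmin genes Defb14 and Chit1 rose, and Lcn2 was at -1.87 ± 0.47 (adjusted p = 0.0924).

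In 4 lists of these processes limma called 0 members. Cholesterol synthesis had 22 genes, 7 of them at an unadjusted p under 0.05, and a median of 0.29 against -0.21 after miR-365a. Inflammatory cytokine and NF-kB genes numbered 18 (2 at an unadjusted p under 0.05, median -0.13), with Csf3 at -1.34 ± 0.30 and Ccl7 at 1.18 ± 0.50. Ribosome biogenesis and MYC-responsive genes numbered 25 (3 at an unadjusted p under 0.05, median -0.09), with Polr1b at -0.92 and Myc at -0.34. Interferon response genes numbered 17 (1 at an unadjusted p under 0.05, median 0.10).

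Markers of the labelled cell type were present. Of 18 squamous carcinoma markers 17 were well above background on all 4 arrays, all but Sox2, with a median difference of 0.27 and 0 calls (4 at an unadjusted p under 0.05). Markers of other cells were mostly dim, with 2 of 10 fibroblast, 4 of 10 leukocyte, 4 of 10 endothelial and 2 of 7 melanocyte markers among the genes described. Of these lists Col1a1, Ptprc, Cdh5 and Tyrp1 were not well above background on both arrays of any group. The 4 leukocyte markers described were not dim as a mean. They averaged -0.11 and -0.30 on the NC arrays and -0.11 and -0.25 on the miR-193b arrays. The means of the fibroblast, endothelial and melanocyte markers described lay lower. The endothelial markers Cd93 (1.74) and Esam (0.88) rose and Cd34 was at -1.08. The part of other cell types in the results was not tested. On the arrays of the 0.2 set, 51.4% to 54.6% of the 43020 gene spots were well above background and 0 were saturated. The RNA integrity number given is 10 for every sample.

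The same genes were set beside miR-365a against its own NC arrays, which share no array with this comparison, although set and microRNA differ together. Both comparisons use the same estimate of spread for a gene, from the same fit. A gene of low spread is therefore easier to call in both, which favours shared calls. Of the 221 genes that rose, 91 rose after miR-365a (41.2%, beside 7.77% of all genes described) and 17 fell. Of the 162 that fell, 50 fell there (30.9%, beside 9.40% of all genes) and 13 rose. The 91 are 7.98% of the 1140 genes that rose after miR-365a and the 50 are 3.63% of the 1379 that fell. By the contrast of the effects, 49 of the 221 and 58 of the 162 differed between the microRNAs, beside 3.61% of all genes and 3.41% of those tested. This contrast contains the same miR-193b difference that gave the calls, which favours a larger share among called genes. Among falls that passed this test were Kat2b, Apln, Rhoc, Axl, Stmn1, Dcaf7, Med6 and Ankrd13a, and among rises Bnc2, Krt16, Stra6, Pla1a, Defb14 and Grhl1. Falls present after both included Lpcat1, Gprc5b, Cnot6 and Etv5, and rises Fyco1, Ivl, Sel1l, F11r and Etfrf1. The difference between the microRNAs was not called for any of these 9 genes (limma adjusted p from 0.605 to 0.995), which does not show equal effects.

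The difference was also taken by slide. Over the 14671 genes the difference within slide 1 and that across slides 2 and 3, which use different arrays of the same line and labels, had a Pearson r of 0.616 and a Spearman rho of 0.650 across genes, and 75.4% had the same sign. Rhoc gave -1.71 within slide 1 and -1.81 across the others, Axl -1.68 and -1.73, and Bnc2 2.15 and 2.65. Oas1a gave 0.80 and -1.41 and Ifit1 1.28 and -0.75, so these interferon response genes lay on opposite sides. For the interferon list slide 1 gave a median of 0.64, and slides 2 and 3 together gave -0.71.

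**Figure D5:**
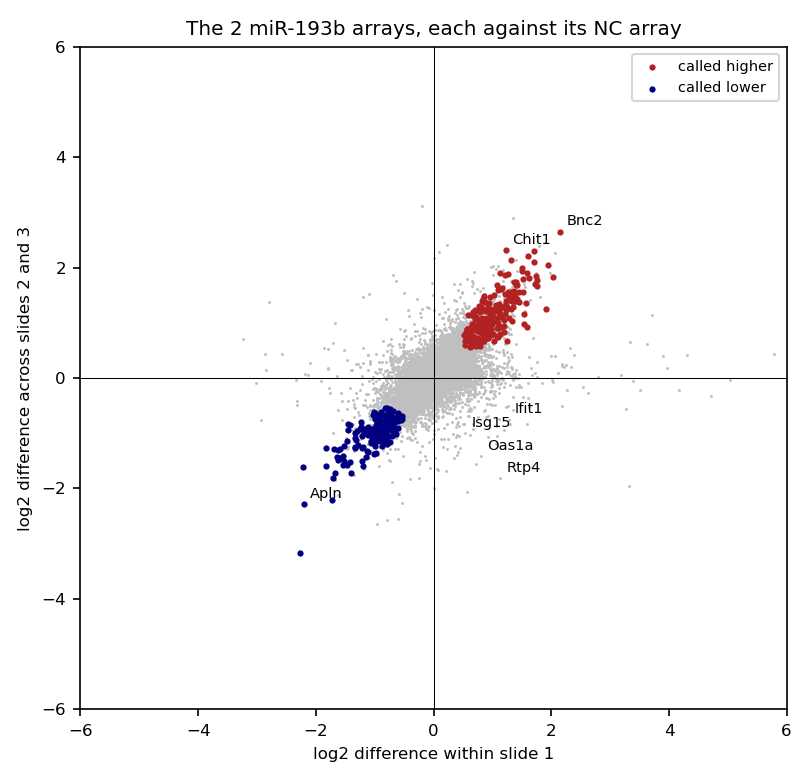
Log2 difference across slides 2 and 3 (y axis) against that within slide 1 (x axis), 1 point per gene, with genes called higher in red and lower in blue. Called genes lie at the upper right and lower left, and the interferon response genes Ifit1, Isg15, Oas1a and Rtp4 lie in the lower right.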

How the data were processed

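Each of the 8 arrays came as scanner output with an intensity per spot. This was Agilent's background-corrected signal, written by Feature Extraction 10.7.3.1 per the file headers, and the authors deposited it before any scaling from array to array. The log2 values in the authors' deposited table served as an alternative, and its normalization is not given in the sources used here beyond limma, named in the submitters' processing notes. Mean and background intensities and the flags, also deposited, served the normexp alternative and the filters. Control spots and outlier spots were left out. The log2 signal was centred on the 75th percentile of each array, spots were averaged per probe and the brightest probe represented a gene. Of 39429 probes, 27508 were named by accession, 3544 by symbol and 404 by synonym through RefSeq tables (GRCm38.p6), and 7973 kept the file's name. Probe positions are on mm9 as deposited.

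The test took genes well above background in both arrays of 1 group or more. It was made with limma 3.58.1 (lmFit, eBayes) in R 4.3.3 over 8 arrays, with terms for set, miR-193b and miR-365a (4 residual and 2.31 prior degrees of freedom). The steps were tested on simulated data. Python 3.11.15 was used elsewhere. Fold changes come from the log2 differences. Named genes were the reported targets and the 25 largest called rises and falls with symbols and with arrays that do not overlap. To these were added up to 4 called genes per list, the 10 smallest p values and 12 falls with a seed match. The genes and lists were chosen with earlier results of these data known. Lists and matches were described by counts and medians, without a test. Alternatives were other normalizations, background correction, filters, variance models, probe rules, slide terms and the removal of each array. With 2 arrays a side their number limits the precision. Some genes the rule selects are not reported here.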

Additional observations from a re-analysis of the deposited data

How the results depend on the processing

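Against 383 calls (221 higher, 162 lower), limma made 341 under median centring (307 of the same genes), 441 under quantile normalization (373 of them) and 431 with slide as a random block (380 of them). There were 775 calls under normexp background correction (488 higher, 287 lower), 784 with the deposited log2 values (437, 347), 786 with only these genes tested (474, 312) and 891 with a trended robust variance (549, 342). With the mean of all probes there were 237 (133, 104), with no filter on dim probes 2 (1 each) and with the 0.2 set alone 0 in either direction. A fixed term for slide 1, added after seeing the data, gave 564 (343 higher), 369 of the 383 among them. Leaving out 1 of the 8 arrays gave 2 to 126 calls, 1 to 68 higher and 1 to 58 lower. Under the other normalizations and background correction all 383 kept their sign, and 381 did with the mean of all probes; with an array left out, the sign of a gene whose arrays do not overlap cannot turn. Apart from fewer arrays or probes, the cause was not tested. The sizes of several dim genes also varied with the processing. Across the alternatives F2rl1 ranged from -2.28 to -0.94, ENSMUST00000080175 from -3.05 to -1.37 and Defb14 from 0.94 to 2.19. Tlr5 ranged from 0.62 to 1.77, Poln from 0.24 to 1.58 and Unc13c from -0.93 to -0.11. The bright genes Axl (-1.77 to -1.66) and Stmn1 (-1.61 to -1.48) varied less. Wide ranges were not limited to dim genes, with Timp2 from -1.12 to -0.37 and Dtl from -1.30 to -0.55.

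The median of genes with a miR-193b match, -0.0887, was -0.1256 under median centring, -0.1374 under quantile normalization, -0.057 under normexp, -0.1211 with the deposited values, -0.1346 across slides 2 and 3 and -0.1327 with matches in the measuring probe only (added after seeing the data). It ranged from -0.1626 to -0.0678 with 1 array left out. Of uncalled genes, Mcl1 ranged from -0.0141 to 0.2064 with 1 array left out (it turned without miR-193b replicate 1), and Smad3 turned to 0.0807 with the mean of all probes. Nf1 turned to -0.01 under median centring, -0.0271 without NC replicate 1 and -0.1674 without miR-193b replicate 2, with 0.2211 as its highest value. No paired analysis was possible because the labels give the arrays no replicate numbers that groups share. The fixed term for slide 1 given above only sets slide 1 apart from the other slides. It leaves slides 2 and 3 together, where slide and group cannot be told apart. The search in 3′ untranslated against coding sequence was not run, as transcripts were not used here. Probes near background set the limit for dim genes.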

Other observations

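Interferon response genes differed between the replicates of each group rather than between the groups. All 17 of the list were higher on replicate 2 in both NC and miR-193b cells, and 8 were at least 2-fold higher in both. The median step from replicate 1 to replicate 2 was 1.84 on the log2 scale in NC and 0.77 in miR-193b. Oas1a, a sensor of double-stranded RNA, read -3.16 and 1.94 on the NC arrays and -2.36 and 0.52 on the miR-193b arrays. Rtp4 read -3.59 and 2.41 against -2.46 and 0.60, and Isg15, a ubiquitin-like modifier, 1.44 and 4.61 against 1.98 and 3.61. Both replicate 1 arrays shared slide 1, so slide and replicate cannot be told apart here.

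Over all 14671 genes, 343 differed at least 2-fold between the NC replicates and 199 between the miR-193b replicates. The replicate differences of the groups had a Pearson r of 0.435 and a Spearman rho of 0.459 across genes, which share slide 1 for both replicate 1 arrays. At least 2-fold in both groups, 36 genes were higher on replicate 2, 27 were lower and 5 moved in opposite directions. Of the 63 that moved alike, 0 were called in the limma comparison of miR-193b with NC, a count that their choice by wide replicate spread favours. Besides interferon genes they held the endothelin gene Edn2 (-1.99 and -4.11 on NC arrays, -1.37 and -3.65 on miR-193b arrays), the plasminogen activator inhibitor gene Serpinb2 (3.14 and 1.57, 3.78 and 2.12) and the stress factor gene Atf3 (-1.69 and -3.42, -2.92 and -4.53), all lower on replicate 2. These genes were chosen after their values were seen.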
